A study of Mus musculus with 40 samples.

Results

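The 4 genes described here encode the RUNX family of transcription factors, Runx1, Runx2 and Runx3, and their shared partner Cbfb. They were taken by symbol from a table of 21950 genes measured by RNA-seq in mouse CD4 T cells, and all 4 were found. The 24 libraries formed 8 groups of 3, and cells came from the spleens of mice on a C57BL/6 background that carry a Foxp3 reporter. Conventional T cells (Tconvs) and thymus-derived regulatory T cells (tTregs, called nTreg in the sample titles, and sorted as CD4+ Foxp3-GFP+ cells) were taken from mice of 2 to 4 months of age and were profiled resting or activated. Induced regulatory T cells (iTregs) were made from sorted naive CD4 T cells of 6-week-old mice by culture for 4 days with plate-bound anti-CD3 and anti-CD28, TGF-β at 2 ng per ml and IL-2, were sorted on the Foxp3 reporter and were rested for 1 day in IL-2. The iTreg libraries were resting cells, cells restimulated through CD3 and CD28, and cells given an inhibitor of the calcium channel ORAI or cyclosporine A (CsA), which blocks calcineurin and thereby NFAT. In the study's description of its experiments the inhibitors were present during restimulation, whereas the sample titles name only the inhibitor, and the length of activation before sequencing was not given in the sources used here. Resting iTregs have thus already been activated in culture, which resting Tconvs and tTregs have not. Mouse age also differed along with induction between the iTregs and the other cells, and its part was not tested. Whether the Tconvs of these libraries were sorted as naive cells was not given in the sources used here.

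RUNX proteins bind DNA through their Runt domain, and CBFβ, the product of Cbfb, does not touch DNA but binds the Runt domain and strengthens its hold on DNA. The complex can activate or repress, for repression by recruiting Groucho/TLE corepressors. In T cells, RUNX1 acts in thymocytes and naive cells and binds FOXP3, RUNX3 silences Cd4 in the cytotoxic lineage and works with T-bet in type 1 helper cells, and RUNX complexes act on the Foxp3 gene, including in cells exposed to TGF-β. RUNX2 is best known as the regulator of bone formation.

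On GRCm38, Runx1 spans chr16:92601466-92826149 on the minus strand, Runx2 spans chr17:44495987-44814797 on the minus strand, Runx3 spans chr4:135120652-135177990 on the plus strand and Cbfb spans chr8:105170674-105217989 on the plus strand. All 4 are annotated as protein-coding. Of the exon bases of Runx1, 0.881% are shared with Gm26626 on the opposite strand, and of those of Runx2, 5.87% are shared with Runx2os1 on the opposite strand. Strand use in the counting was not given in the sources used here, so reads in those bases cannot be assigned between the partners. Runx3 and Cbfb share no exon bases with another gene.

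Mammalian RUNX genes are known for being transcribed from a distal and a proximal promoter, and the gene-level values used here add up both. Promoter windows of 300 bases (250 before and 50 after the annotated start) were read from RefSeq on GRCm38.p6. There were 6 windows for the 4 genes: distal and proximal windows for Runx1 and for Runx3, the distal window of Runx2 and the window of Cbfb. The 3 distal windows shared a run of 18 bases, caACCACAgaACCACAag, with 2 copies of the letters ACCACA, the reverse complement of the RUNX letters TGTGGT. The stretches that hold this run are shown to place it, since the run is the longest sequence that the 3 distal windows share. They are written 5′ to 3′ on the gene's strand, and capitals mark ACCACA.
Runx1, chr16:92826025-92826104, minus strand: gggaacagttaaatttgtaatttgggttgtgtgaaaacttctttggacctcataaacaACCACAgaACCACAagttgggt
Runx2, chr17:44814583-44814662, minus strand: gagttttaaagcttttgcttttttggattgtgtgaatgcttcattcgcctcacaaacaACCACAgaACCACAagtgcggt
Runx3, chr4:135120453-135120532, plus strand: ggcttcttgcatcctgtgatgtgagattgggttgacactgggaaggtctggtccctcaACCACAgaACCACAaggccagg

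The run lay from base 27 to base 44 after the annotated start of Runx1, from base 22 to base 39 after that of Runx2, and 136 to 119 bases before that of Runx3. It occurred in 4 of 32851 windows (0.0122%), the 3 distal RUNX windows and the window of Gm16225, which overlaps that of Runx3 from the opposite strand. The run was picked as the longest one shared by the 3 distal windows, so its presence in these windows follows from that choice. The letters TGTGGT, searched on both strands, were in 16.8% of all windows at least once. They occurred 2 times in the distal windows of Runx1 and Runx3 and 3 times in that of Runx2, and had no match in the proximal windows of Runx1 and Runx3 or in the Cbfb window. The letters TGCGGT, in 6.45% of all windows, had 1 match, in the Runx2 distal window. The NFAT core letters GGAAA were in 61.3% of all windows, had 2 matches in each of both Runx1 windows and the Runx2 window, and none in the windows of Runx3 and Cbfb. The AP-1 letters TGANTCA, in 7.81% of all windows, had no match in the 6 windows. The ETS letters GGAAG, which share the core GGAA with the NFAT letters, were in 71.4% of all windows and had 4 matches in the Cbfb window, 3 in that of Runx2 and 1 in each distal window of Runx1 and Runx3. A match describes letters in these windows and does not show binding.

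**Figure D1:**
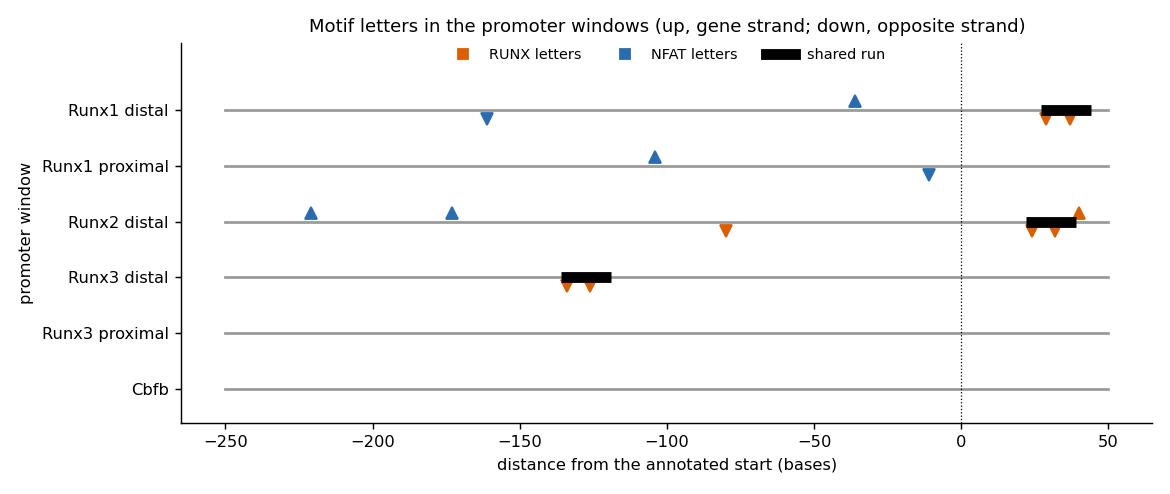
Matches to RUNX letters (TGTGGT or TGCGGT, orange) and NFAT letters (GGAAA, blue) in the 6 promoter windows, by distance in bases from the annotated start; triangles pointing up are on the gene's strand and those pointing down on the opposite strand, and black bars mark the 18-base run. The run sits after the start in Runx1 and Runx2 and before it in Runx3.

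Values are normalized counts, that is, gene counts that the authors divided by a size factor for each library. The shallowest library held 5256800 reads assigned to genes and the deepest 15685234 (median 10801942), and both tTreg groups had the lowest group medians. A floor of 3 reads was worth between 2.12 and 5.45 normalized counts. The members were read deeply enough to be measured in every library, with 228 to 1006 reads for Runx1, 149 to 1254 for Runx3, 96 to 662 for Cbfb and 27 to 98 for Runx2. Foxp3, which the sort used, was at 10.4 ± 0.835 (SD, n = 3) normalized counts in resting Tconvs, 7537 ± 285 in resting tTregs and 1280 ± 88.4 in resting iTregs. Markers of other cells were not uniformly low. Cd8a did not exceed 13.2 normalized counts in any library, whereas Cd8b1 was between 93.0 and 234 and was highest in resting Tconvs (229 ± 7.78). The B cell genes Ms4a1 and Pax5 had group means of 0 throughout, whereas Cd79b was at 124 ± 2.18 in resting tTregs against 7.97 ± 2.34 in resting Tconvs. Cd79a, another B cell gene, went the other way, at 8.02 ± 6.23 in resting tTregs against 18.1 ± 4.00 in resting Tconvs. The NK cell genes Ncr1 and Klrb1c were at 0 in all 12 iTreg libraries, but Klrb1c was at 30.9, 20.6 and 16.7 in resting Tconvs, and Klre1 reached 8.06 in restimulated iTregs. The part of such cells in the results was not tested. Differences were tested with limma on log2(normalized count + 1), and a gene was called when its Benjamini-Hochberg adjusted p over all tested genes was below 0.05 and its log2 fold change passed 0.5 in either direction. The labels do not say whether replicates came from separate mice or cultures, so the p-values measure the spread between these samples. In bulk libraries, a change in the share of cells that express a gene and a change in the RNA per cell cannot be told apart.

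The levels of the 4 genes followed different patterns over the 8 groups. Runx3 varied most, with a group mean 4.86-fold higher in restimulated iTregs than in activated Tconvs, and the ratio of highest to lowest group mean was 3.39 for Runx1, 2.57 for Runx2 and 2.31 for Cbfb. In decreasing order of its mean, Runx3 stood in restimulated iTregs, iTregs with CsA, iTregs with the ORAI inhibitor, resting iTregs, resting tTregs, resting Tconvs, activated tTregs and activated Tconvs. Neighbours in that order overlapped in their libraries in 3 places: between the CsA and ORAI inhibitor groups, between resting tTregs and resting Tconvs, and between activated tTregs and activated Tconvs. The 12 iTreg libraries lay above all 12 Tconv and tTreg libraries for Runx3, the lowest iTreg library at 703 and the highest of the others at 476 normalized counts. For Runx1 the order ran from resting Tconvs, resting tTregs and activated tTregs through the 4 iTreg groups to activated Tconvs. For Runx2 both tTreg groups stood above the other 6 groups, which overlapped with their neighbours throughout. For Cbfb resting iTregs and resting Tconvs came first and both tTreg groups last.

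**Figure D2:**
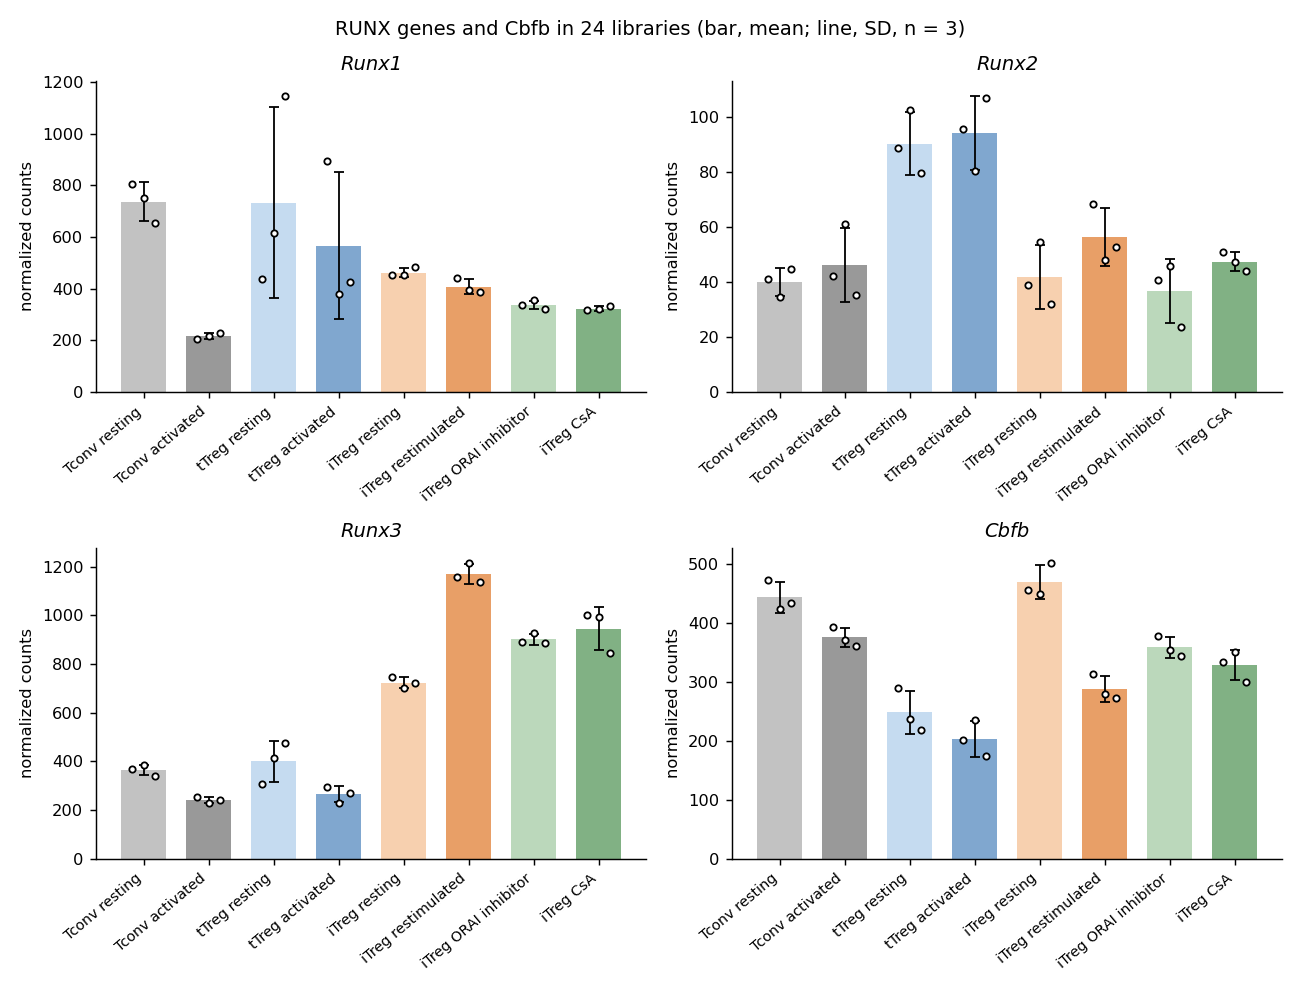
Normalized counts of the 4 genes in each library (open points), with group means (bars) and SD (lines, n = 3), over the 8 groups on the horizontal axis. Runx3 is highest in the 4 iTreg groups, Runx2 in both tTreg groups, Cbfb lowest in tTregs, and Runx1 lowest in activated Tconvs and widely spread in tTregs.

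Activation of Tconvs was accompanied by a loss of Runx1 and a smaller loss of Runx3. Runx1 was at 804, 749 and 655 normalized counts in the 3 resting Tconv libraries and at 205, 217 and 229 in the activated ones. The groups did not overlap, and the activated mean was 29.5% of the resting mean (log2 fold change -1.75, SE 0.31, adjusted p = 1.59e-04). Runx3 was at 368, 384 and 341 in resting and at 255, 228 and 241 in activated Tconvs, again with no overlap (log2 fold change -0.59, SE 0.14, adjusted p = 0.00166). Thus 2 of the 4 members were called, beside 50.2% of the 11495 genes tested in this comparison. Cbfb was at 472, 423 and 434 in resting and 393, 372 and 362 in activated Tconvs, and this difference was not called (log2 fold change -0.24, 95% confidence interval -0.50 to 0.02, adjusted p = 0.107). Runx2 was near 40 normalized counts in both states (41.1, 34.7 and 44.8 against 42.2, 61.2 and 35.4), with overlapping libraries and a log2 fold change of 0.17 (95% confidence interval -0.33 to 0.66).

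In tTregs, Runx3 was lower after activation, and the other 3 genes did not pass the test. Runx3 was at 308, 415 and 476 normalized counts in resting and at 294, 228 and 271 in activated tTregs, with each resting library above each activated library (log2 fold change -0.58, SE 0.14, adjusted p = 0.00513), and 1 of 4 members was called beside 21.9% of all tested genes. This call was lost when the fit held only the groups compared (adjusted p = 0.0675), without the third resting library (log2 fold change -0.44) and without the second activated library (-0.48). Runx1 was spread widely in tTregs, at 438, 614 and 1146 normalized counts in resting and 894, 378 and 425 in activated libraries. The groups overlapped, and the coefficient of variation was 50.3% and 50.4%, against 2.90% to 10.3% in the other 6 groups. The tTreg replicates also differed more from each other over the well-read genes at large. The chi-square per gene between paired replicates, their difference relative to counting error, was 13.8 to 39.4 in tTregs. It was 2.79 to 17.6 in the other 6 groups, so the wider spread was not particular to Runx1 and bears on each tTreg comparison. The log2 fold change of Runx1 was -0.37 (95% confidence interval -1.02 to 0.29), and without the third resting library it was 0.01. Cbfb, at 289, 236 and 219 against 201, 235 and 174, and Runx2, at 88.9, 103 and 79.7 against 95.6, 80.4 and 107, were not called and overlapped between states.

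The difference between the Tconv and tTreg responses was tested directly. For Runx1 it was -1.39 on the log2 scale (SE 0.43, adjusted p = 0.0198), and it was called beside 34.7% of all tested genes. The fall of mean log2 Runx1 was thus steeper in Tconvs than in tTregs. The Runx1 difference lay between -1.77 without the third resting tTreg library and -1.004 without the first activated tTreg library, and it was called in each case. However, the fit takes 1 spread for all its groups. The coefficient of variation of Runx1 was 50.3% and 50.4% in resting and activated tTregs, against 10.3% and 5.49% in Tconvs. The SE and adjusted p may therefore understate the uncertainty that comes from the tTreg libraries. The responses of Runx3 differed by -0.01 (95% confidence interval -0.43 to 0.40), those of Cbfb by 0.05 (-0.32 to 0.42) and those of Runx2 by 0.11 (-0.59 to 0.81).

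Comparing tTregs with Tconvs in the same state, tTregs held more Runx2 and less Cbfb. Between resting cells Runx2 was 2.25-fold higher in tTregs (90.4 ± 11.5 against 40.2 ± 5.09 normalized counts, SD, n = 3; log2 fold change 1.15, SE 0.23, adjusted p = 7.49e-04), and Cbfb was at 55.98% of the Tconv level (248 ± 36.8 against 443 ± 25.7; log2 fold change -0.84, SE 0.12, adjusted p = 4.19e-05). The libraries of the groups did not overlap for either gene, and 2 of 4 members were called beside 38.6% of all tested genes. Runx1 and Runx3 were not called, with log2 fold changes of -0.12 (95% confidence interval -0.78 to 0.54) and 0.11 (-0.18 to 0.41). Between activated cells the differences of Runx2 (log2 fold change 1.04, adjusted p = 0.00127) and Cbfb (-0.89, adjusted p = 1.87e-05) were again called, and Runx1 joined them, 2.61-fold higher in activated tTregs (log2 fold change 1.27, SE 0.31, adjusted p = 0.00238). This made 3 of 4 members beside 48.2% of all tested genes. The lowest activated tTreg library, at 378 normalized counts of Runx1, stood above the highest activated Tconv library at 229. In tTregs the B cell gene Cd79b was also higher, at 124 ± 2.18 in resting tTregs against 7.97 ± 2.34 in resting Tconvs. The B cell gene Cd79a was lower (8.02 ± 6.23 against 18.1 ± 4.00), and Ms4a1 and Pax5 were at 0 in both groups.

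Resting iTregs differed from resting Tconvs in Runx3. It was at 746, 703 and 722 normalized counts in resting iTregs, 1.99-fold above resting Tconvs (log2 fold change 0.99, SE 0.14, adjusted p = 1.14e-05). This was the 1 member called, beside 63.6% of all tested genes. Runx1 was at 452, 451 and 483 in resting iTregs, below each resting Tconv library, but its log2 fold change of -0.67 did not pass the adjusted p (0.0633) in the fit whose spread includes the tTreg libraries. It passed when the fit held only the groups compared (adjusted p = 5.02e-05). Cbfb (456, 449 and 502) and Runx2 (39.0, 54.5 and 31.9) overlapped with resting Tconvs, with log2 fold changes of 0.08 (95% confidence interval -0.18 to 0.34) and 0.03 (-0.47 to 0.52).

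Against activated Tconvs, resting iTregs were 3.00-fold higher in Runx3 (log2 fold change 1.58, SE 0.14, adjusted p = 2.02e-07) and 2.13-fold higher in Runx1 (log2 fold change 1.09, SE 0.31, adjusted p = 0.00746), and 2 of 4 members were called beside 41.6% of all tested genes. The libraries of the groups did not overlap for either gene. Against resting tTregs, iTregs were 1.81-fold higher in Runx3 (log2 fold change 0.88, adjusted p = 3.99e-05) and 1.89-fold higher in Cbfb (0.93, adjusted p = 7.13e-06), and Runx2 was at 46.2% of the tTreg level (-1.12, adjusted p = 4.75e-04). These were 3 of 4 members beside 63.4% of all tested genes. Runx1 differed by -0.55 (95% confidence interval -1.20 to 0.11), with values between -0.86 without the first resting tTreg library, where it was called, and -0.17 without the third.

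Restimulation of iTregs moved Runx3 and Cbfb in opposite directions. Runx3 rose from 746, 703 and 722 normalized counts in resting iTregs to 1156, 1217 and 1139 in restimulated iTregs, a 1.62-fold increase (log2 fold change 0.69, SE 0.07, adjusted p = 3.42e-06). Cbfb fell from 456, 449 and 502 to 313, 279 and 272, or 61.4% of the resting mean (log2 fold change -0.70, SE 0.09, adjusted p = 2.54e-05). The states did not overlap for either gene, and each was called in every alternative except that requiring a log2 fold change above 1. These 2 of 4 members stood beside 12.8% of the 11105 genes tested among iTregs. Runx1, at 442, 394 and 387 after restimulation, differed by -0.18 (95% confidence interval -0.34 to -0.02, adjusted p = 0.0892), and Runx2, at 68.5, 48.2 and 52.7, by 0.44 (-0.09 to 0.98, adjusted p = 0.205). Neither was called.

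The direction of the Runx3 change set iTregs apart from the other cells. The response of Runx3 to restimulation in iTregs exceeded its response to activation in Tconvs by 1.29 (SE 0.17, adjusted p = 1.41e-06) and in tTregs by 1.27 (SE 0.17, adjusted p = 8.20e-06) on the log2 scale. For Runx1, which fell in activated Tconvs, the iTreg response exceeded that of Tconvs by 1.57 (SE 0.37, adjusted p = 0.00110) and differed from that of tTregs by 0.18 (95% confidence interval -0.58 to 0.94). For Cbfb the iTreg response was lower than that of Tconvs by a log2 difference of -0.46 (adjusted p = 0.0167), below the fold threshold, and the difference from tTregs was -0.42 (adjusted p = 0.0517), which was called without the first resting (-0.53) or the third activated tTreg library (-0.52). Against Tconvs it was called without the first resting Tconv library (-0.51) or the first restimulated library (-0.53). Thus 2 of 4 members were called against the Tconv response beside 44.2% of the 11725 genes tested, and 1 of 4 against the tTreg response beside 21.3%. These comparisons share the iTreg libraries, and the iTregs had been stimulated in culture before, which the Tconvs and tTregs had not.

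After stimulation, the difference in Runx3 between cell types was wide. Restimulated iTregs had 4.86-fold more Runx3 than activated Tconvs (log2 fold change 2.28, SE 0.12, adjusted p = 4.32e-13) and 4.43-fold more than activated tTregs (2.15, SE 0.12, adjusted p = 6.72e-13). Runx1 was 1.88-fold higher than in activated Tconvs (log2 fold change 0.91, adjusted p = 0.00460) and was not called against activated tTregs (-0.36, 95% confidence interval -0.90 to 0.17). Cbfb was lower than in activated Tconvs by a log2 difference of -0.38 (adjusted p = 0.00497), below the fold threshold. Against activated tTregs, Cbfb was 1.42-fold higher (log2 fold change 0.51, adjusted p = 3.01e-04), a call that edgeR and DESeq2 did not make and that was lost without the third activated tTreg library (0.41) or the first restimulated library (0.45), and Runx2 was at 59.8% of the tTreg level (-0.74, adjusted p = 0.00951). In all, 2 of 4 members were called against activated Tconvs beside 44.3% of all tested genes, and 3 of 4 against activated tTregs beside 59.3%.

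**Figure D3:**
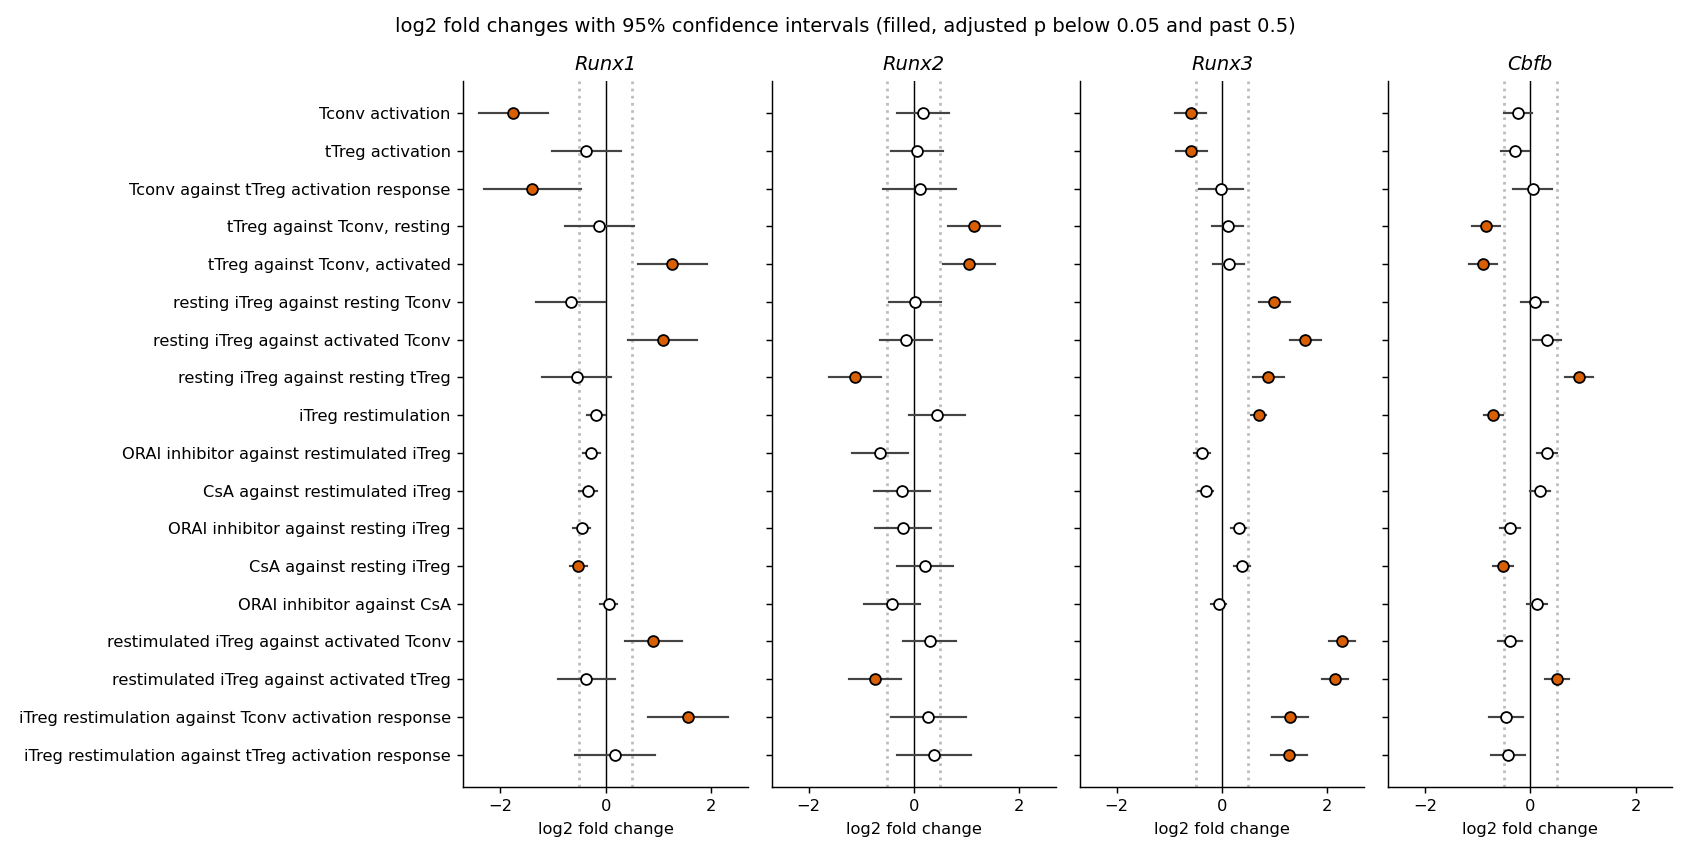
Log2 fold changes (points) with 95% confidence intervals (lines) of the 4 genes in 18 comparisons, with the first-named group relative to the second; filled points passed both the adjusted p of 0.05 and the fold threshold of 0.5 (dotted lines). Runx3 lies right of 0 in the comparisons of iTregs with Tconvs or tTregs and left of 0 on activation of Tconvs and tTregs, and Cbfb lies left of 0 on restimulation of iTregs.

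The levels in the inhibitor groups were set beside those of resting and restimulated iTregs. How far calcium entry or calcineurin was blocked in these cells was not tested. Shares of the restimulation change given below are ratios of differences between group means, without an interval or a test. With the ORAI inhibitor, Runx3 was at 892, 926 and 886 normalized counts, and with CsA at 1002, 991 and 844. Both sets of libraries lay between those of resting and restimulated iTregs with no overlap on either side. Against restimulated iTregs, the log2 difference of Runx3 was -0.38 with the ORAI inhibitor (SE 0.07, adjusted p = 0.00330) and -0.31 with CsA (SE 0.07, adjusted p = 0.0123). Against resting iTregs it was 0.32 (adjusted p = 0.00551) and 0.38 (adjusted p = 0.00117). All 4 differences passed the adjusted p but not the fold threshold of 0.5, and on the log2 scale 45.6% of the restimulation increase was present with the ORAI inhibitor and 55.0% with CsA.

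Cbfb was at 378, 354 and 344 normalized counts with the ORAI inhibitor and at 334, 351 and 300 with CsA. The ORAI inhibitor libraries lay above all 3 restimulated libraries, the highest of which was at 313, and the CsA libraries overlapped with them. The log2 difference from restimulated iTregs was 0.32 with the ORAI inhibitor (SE 0.09, adjusted p = 0.0361), below the fold threshold, and 0.19 with CsA (95% confidence interval 0.002 to 0.37, adjusted p = 0.215). Of the fall in Cbfb on restimulation, 54.9% was present with the ORAI inhibitor and 73.4% with CsA on the log2 scale.

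Runx1 lay further from its resting level with either inhibitor than after restimulation alone. It was at 335, 355 and 321 normalized counts with the ORAI inhibitor and at 316, 319 and 333 with CsA, in each case below all 3 resting and all 3 restimulated libraries. The log2 differences from restimulated iTregs were -0.27 (adjusted p = 0.0396) and -0.33 (adjusted p = 0.0144), and those from resting iTregs were -0.46 (adjusted p = 7.56e-04) and -0.52 (adjusted p = 2.22e-04), of which the last was called. Runx2, at 40.8, 45.8 and 23.7 with the ORAI inhibitor and 51.1, 47.2 and 44.0 with CsA, was called in none of these comparisons, and its log2 difference from restimulated iTregs was -0.64 with the ORAI inhibitor (95% confidence interval -1.17 to -0.11, adjusted p = 0.148).

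By the full rule limma called 0 of 4 members with the ORAI inhibitor against restimulated iTregs beside 3.30% of all tested genes, and 0 of 4 with CsA beside 2.92%. At an unadjusted p below 0.05 the counts were 4 and 3, and edgeR and DESeq2 also called 0 in both. Against resting iTregs 0 of 4 members were called with the ORAI inhibitor beside 7.10% of all tested genes (3 at an unadjusted p below 0.05, and 0 by edgeR and by DESeq2), and 2 of 4, Runx1 and Cbfb, with CsA beside 9.43%. The Cbfb difference of CsA from resting iTregs was -0.51 (adjusted p = 6.38e-04). Both calls lay near the fold threshold and were lost without the third resting iTreg library (-0.48 for Runx1 and -0.46 for Cbfb), and that of Cbfb also without the third CsA library (-0.45). The inhibitors did not separate from each other: 0 of 4 members were called beside 0.360% of all tested genes, with 0 at an unadjusted p below 0.05 and 0 by edgeR and by DESeq2. The log2 difference of the ORAI inhibitor from CsA was -0.07 for Runx3 (95% confidence interval -0.21 to 0.08), 0.13 for Cbfb (-0.06 to 0.31), 0.06 for Runx1 (-0.10 to 0.22) and -0.41 for Runx2 (-0.94 to 0.12). These comparisons share the resting and restimulated libraries.

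To compare the genes with each other, normalized counts were divided by the length of each gene's merged exons in kb, 12.025 for Runx1, 8.84 for Runx2, 5.00 for Runx3 and 3.48 for Cbfb. On this scale Runx3 made up 52.6% ± 1.63 (SD, n = 3) of the summed RUNX level in Tconvs at rest and 67.4% ± 2.76 after their activation. In tTregs the share was 53.9% ± 5.34 at rest and 49.0% ± 7.10 after activation. In iTregs its share was 77.0% ± 0.899 at rest and 85.3% ± 1.32 after restimulation, and it stayed at 84.9% ± 0.808 with the ORAI inhibitor and 85.4% ± 1.40 with CsA. The libraries of both inhibitor groups overlapped with the restimulated ones in this share, since Runx1 and Runx3 were both lower in them.

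Runx1 made up 44.1% ± 1.79 of the summed level in resting Tconvs, 38.9% ± 7.75 in resting tTregs and 12.4% ± 0.873 in restimulated iTregs. The share of Runx2 was between 1.95% and 3.31% in resting Tconvs and the iTreg groups. It was 7.34% ± 2.20 in activated Tconvs, 7.27% ± 2.47 in resting tTregs and 10.0% ± 2.26 in activated tTregs, and the libraries of these groups overlapped. The sum itself was 71.5 ± 1.17 normalized counts per kb in activated Tconvs and 274 ± 7.95 in restimulated iTregs. With the length of the longest transcript in place of the merged exons, the share of Runx3 became 41.6% in resting Tconvs and 79.4% in restimulated iTregs, and Runx1 took the larger share in resting Tconvs (55.6%). The order of Runx1 and Runx3 in resting Tconvs therefore depended on the length used, and their order in iTregs did not. In tTregs the order differed between libraries: the ratio of Runx3 to Runx1 in the resting ones was 1.69, 1.63 and 0.999 with the merged exons and 1.06, 1.021 and 0.627 with the longest transcript, so that the mean of the latter lies below 1 through the third library. In activated tTregs it was 0.789, 1.45 and 1.53 with the merged exons and 0.495, 0.909 and 0.961 with the longest transcript.

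Cbfb relative to the summed RUNX level per kb was 0.921 ± 0.0645 in resting Tconvs, 1.51 ± 0.0460 in activated Tconvs, and 0.718 ± 0.0432 in resting and 0.302 ± 0.0218 in restimulated iTregs. The libraries of resting and restimulated iTregs did not overlap, the lowest resting library being at 0.686 and the highest restimulated library at 0.327. With the ORAI inhibitor the ratio was 0.486 ± 0.0275 and with CsA 0.427 ± 0.0125, above every restimulated library and below every resting library. In tTregs it varied from 0.315, in the library with most Runx1, to 0.783, in the library with least. With the longest transcript in place of the merged exons, the ratio was 0.681 in resting and 1.22 in activated Tconvs. In iTregs it was then 0.597 at rest and 0.263 after restimulation. The resting Tconv and resting iTreg libraries then overlapped (lowest 0.631 and highest 0.636), which they did not with the merged exons. These ratios concern RNA and were not tested for significance.

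**Figure D4:**
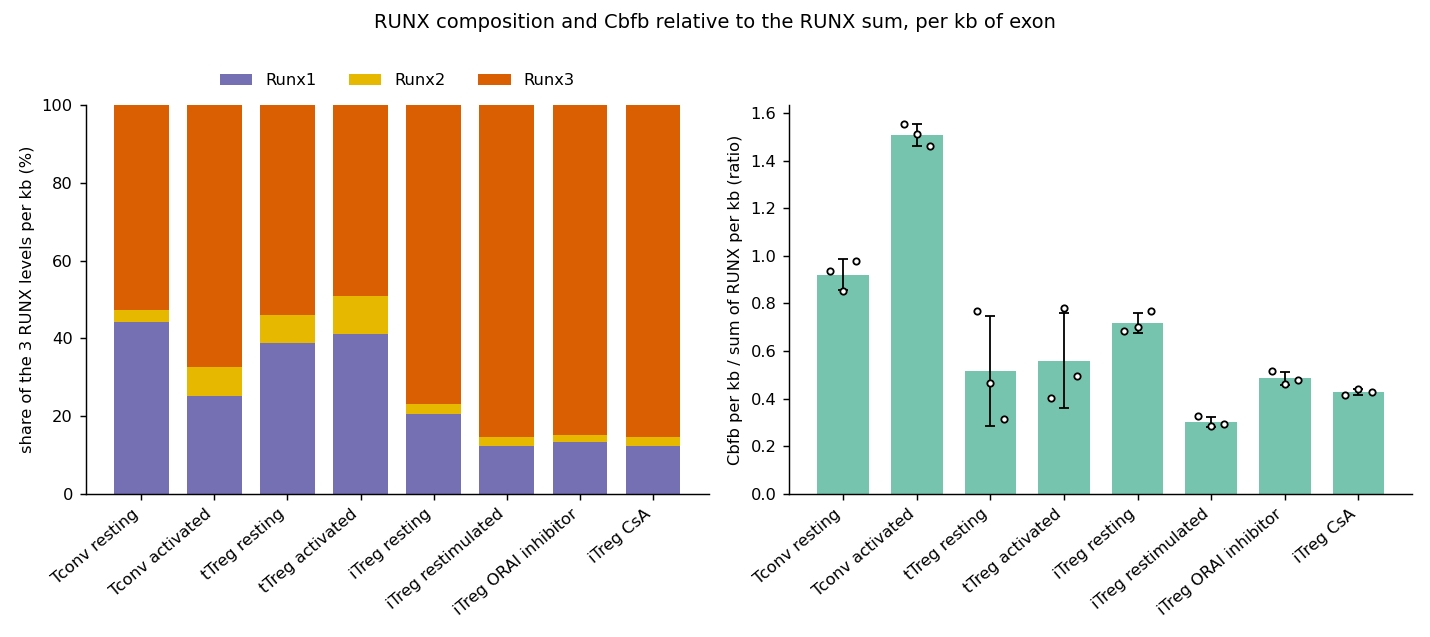
Left, mean share in percent of Runx1, Runx2 and Runx3 in their summed level per kb of merged exon, in each of the 8 groups (n = 3). Right, Cbfb per kb divided by that sum, with libraries as points, means as bars and SD as lines; the ratio is 1.51 in activated Tconvs and 0.302 in restimulated iTregs.

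A list of 19 partners, corepressors and transcription factors that act with RUNX proteins was read in the same fits, where 16 or 17 of the 19 were tested. When Tconvs were activated, 6 were called higher and 5 lower (68.8% of those tested, beside 50.2% of all tested genes), with a median log2 fold change of -0.18 beside -0.04 over all tested genes. The largest rises were those of Eomes (log2 fold change 4.70, SE 0.66) and Tbx21 (2.97, SE 0.61), the T-box factors of effector T cells, and Tle4, a Groucho corepressor, fell by 1.46 (SE 0.13). In activated tTregs 2 were called higher and 1 lower (18.8% beside 21.9% of all tested genes), with a median of 0.06 beside 0.00 over all tested genes. Among them were the deacetylase gene Hdac1, which rose (log2 fold change 0.64, SE 0.10), and Tle1, another Groucho corepressor, which fell (-1.14, SE 0.34).

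In resting tTregs against resting Tconvs, 1 partner was higher and 5 were lower (37.5% beside 38.6% of all tested genes), with a median of -0.06 beside -0.02 over all tested genes. Gata3, the factor of type 2 helper cells, was higher (log2 fold change 1.36, SE 0.12), and the furthest below were Tbx21, at 6.35, 1.298 and 4.56 normalized counts in tTregs against 22.6, 23.4 and 15.8, and Eomes, at or near the floor in tTregs. Resting iTregs against resting Tconvs had 9 partners higher and 4 lower (81.3% beside 63.6%), with a median of 0.68 beside 0.02. Eomes (1.97, SE 0.66) was among the rises, and Tle4 (-2.76, SE 0.13) and Ets1 (-1.60, SE 0.15), a factor that binds DNA together with RUNX1, led the falls. Against resting tTregs, resting iTregs had 8 higher and 5 lower (81.3% beside 63.4%), with a median of 0.36 beside 0.02, and the leading falls were those of Kmt2a, a histone H3 lysine methyltransferase that binds RUNX1 (-1.78, SE 0.07), and Tle4 (-1.14, SE 0.13). Tbx21 (78.9 ± 22.4 against 4.07 ± 2.56 normalized counts) and Eomes (43.3 ± 0.948 against 2.81 ± 2.85) led the rises.

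Restimulation of iTregs raised 2 partners, among them Tbx21 (log2 fold change 1.13, SE 0.34), and lowered 2, Tle4 (-1.10, SE 0.19) and Eomes (-0.73, SE 0.23), which is 23.5% of the list beside 12.8% of all tested genes, with a median over the list of -0.16 beside -0.01 over all tested genes. With the ORAI inhibitor against restimulated iTregs, Tle4 was higher (0.64, SE 0.19) and Tbx21 lower (-1.64, SE 0.34), which is 11.8% beside 3.30%, the median being -0.04 beside 0.01. With CsA limma called 0 of the 17 (beside 2.92% of all tested genes), and 2 had an unadjusted p below 0.05, with a median of -0.09 beside 0.00. Tbx21 was at 175, 226 and 123 normalized counts in restimulated iTregs, at 88.8, 61.6 and 28.1 with the ORAI inhibitor, and at 84.8, 105 and 68.0 with CsA.

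Restimulated iTregs against activated Tconvs had 4 partners higher and 5 lower (52.9% beside 44.3% of all tested genes), with a median of 0.16 beside 0.01 over all tested genes. The corepressor gene Tle2 was among those above (1.94, SE 0.50), and Eomes (-3.46, SE 0.56) and Tle4 (-2.40, SE 0.14) the furthest below. Against activated tTregs 10 were higher and 5 lower (88.2% beside 59.3%), with a median of 0.53 beside 0.03. Tbx21 and Eomes, at or near the floor in activated tTregs, were again the furthest above, and Tle4 (-2.20, SE 0.14) and Kmt2a (-1.40, SE 0.07) the furthest below.

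A list of 20 genes known as targets of RUNX complexes in T cells was described in the same way, of which 15 were tested among the resting and activated cells and 18 among the iTregs. On Tconv activation 8 rose and 7 fell (100% of those tested, beside 50.2% of all tested genes), with a median of 0.71 beside -0.04 over all tested genes. Il2ra, the high-affinity IL-2 receptor chain, rose by 6.74 (SE 0.10) and the cytotoxic protease gene Gzmb by 5.67 (SE 0.20), and Il7r, the IL-7 receptor chain, fell by 4.99 (SE 0.12) and the chemokine gene Ccl5 by 2.35 (SE 0.22) on the log2 scale. On tTreg activation 3 rose, among them Gzmb (1.09, SE 0.20), and 2 fell, Il7r (-0.91, SE 0.12) and Prf1, which encodes perforin (-0.64, SE 0.19), which is 33.3% beside 21.9%, with a median of -0.05 beside 0.00.

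Resting tTregs against resting Tconvs had 6 targets higher, led by Foxp3 (9.37, SE 0.09) and Il2ra (7.37, SE 0.10), and 6 lower, led by Ccl5 (-4.58, SE 0.22) and Il7r (-3.75, SE 0.12), which is 80.0% beside 38.6% of all tested genes, with a median of 0.24 beside -0.02. Foxp3 is the gene that the sort used. Resting iTregs against resting Tconvs had 9 targets higher, led by Gzmb (8.71, SE 0.20) and Il2ra (8.14, SE 0.10), and 5 lower, led by Ccl5 (-4.52, SE 0.22) and Prf1 (-4.27, SE 0.19), which is 93.3% beside 63.6%, with a median of 1.97 beside 0.02. Gzmb and Prf1, which are both described as RUNX3 targets in cytotoxic T cells, thus stood on opposite sides of resting Tconvs in iTregs. Against resting tTregs, resting iTregs had 5 targets higher, led by Eomes (above) and Gzmb (3.83, SE 0.20), and 5 lower, led by Foxp3 (-2.56, SE 0.09) and Prf1 (-2.43, SE 0.19), which is 66.7% beside 63.4%, with a median of 0.05 beside 0.02.

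Restimulation of iTregs raised 5 targets and lowered 3 (44.4% beside 12.8% of all tested genes), with a median of 0.07 beside -0.01 over all tested genes. Ccl5 rose from 29.5, 36.3 and 32.6 to 102, 82.9 and 92.6 normalized counts, and Csf2, the gene of the cytokine GM-CSF, from 4.22, 3.03 and 0.759, near the floor, to 13.1, 11.2 and 10.9. Foxp3 fell by 0.85 (SE 0.09) and Eomes by 0.73 (SE 0.23) on the log2 scale. The ORAI inhibitor against restimulated iTregs had 0 of 18 targets called by limma (beside 3.30% of all tested genes), with 6 at an unadjusted p below 0.05 and a median of 0.03 beside 0.01. CsA had 2 higher, Il7r (0.62, SE 0.09) and Itgae, which encodes the integrin chain CD103 (0.62, SE 0.12), and 1 lower, Ifng, at 2.04, 5.13 and 0 against 13.1, 19.1 and 18.2 normalized counts, which is 16.7% beside 2.92%, with a median of 0.08 beside 0.00. Cd4, which RUNX3 silences in the cytotoxic lineage, was at 4721 ± 628 in resting and 4492 ± 116 in restimulated iTregs, and Cd8a was at 6.63 ± 3.48 and 6.78 ± 1.22. Cd8b1, the gene of the other CD8 chain, was at 103 ± 8.35 and 98.8 ± 9.53.

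Restimulated iTregs against activated Tconvs had 10 targets higher and 3 lower (72.2% beside 44.3% of all tested genes), with a median of 0.87 beside 0.01. Itgae was among those above (142 ± 21.0 normalized counts against 2.48 ± 0.983), and Eomes (above) and Prf1 (-1.45, SE 0.29) the furthest below. Against activated tTregs 8 were higher and 4 lower (66.7% beside 59.3%), with a median of 0.13 beside 0.03. The furthest above were Il4, at 27.2, 30.3 and 23.6 normalized counts against 0, 0.946 and 0, and Ifng, at 13.1, 19.1 and 18.2 against the same values of 0, 0.946 and 0. Foxp3 (-3.36, SE 0.09) and Itgae (-1.45, SE 0.21) were the furthest below.

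**Figure D5:**
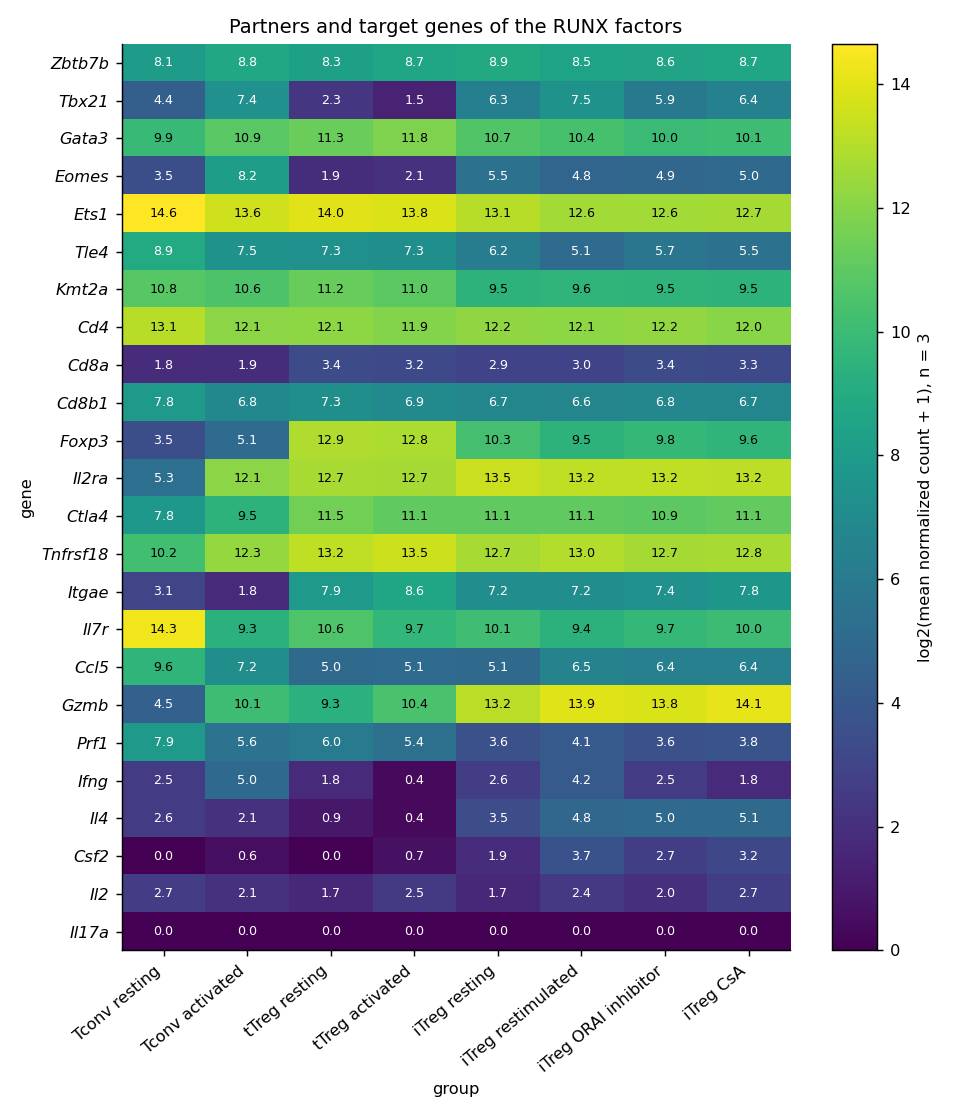
Mean levels, as log2(mean normalized count + 1) with n = 3, of 7 partners and 17 targets of the RUNX factors (rows) in the 8 groups (columns); colour and printed value give the level. Gzmb is high in all iTreg groups, Eomes is highest in activated Tconvs, and Tbx21 is near the floor in tTregs.

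The genes most like each member were those with the highest Pearson r of log2(normalized count + 1) over the 24 libraries, among 8314 genes with a mean of at least 100 normalized counts. The libraries share 8 groups and a common scaling, so r mostly describes the order of the groups and is given without a test. For Runx3 they were Tspan6 (r = 0.964), which encodes a tetraspanin, Hdac7 (0.961), which encodes a class IIa deacetylase, and Dipk2a (0.961). Mean Tspan6 was 135 normalized counts in resting and 301 in restimulated iTregs, and between 33.4 and 67.6 in the Tconv and tTreg groups. Mean Dipk2a was between 246 and 303 in the iTreg groups and between 48.0 and 100 in the Tconv and tTreg groups. Tspan6 and Dipk2a thus reached the required mean of 100 through the iTreg groups, where Runx3 was also highest, so the filter favoured these matches. For Cbfb they were Pbrm1 (0.927), a subunit gene of the PBAF chromatin remodelling complex, Slc25a25 (0.921), a mitochondrial carrier gene, and Brms1 (0.917). For Runx1 they were Ripor1 (0.904), Mast3 (0.873) and Rnf125 (0.856), a ubiquitin ligase gene, and for Runx2 they were Trim37 (0.884), Itgb8 (0.860), which encodes the integrin β8 chain, and Srcap (0.857), a chromatin remodelling ATPase gene. Itgb8 was at 810 normalized counts in resting and 1330 in activated tTregs and at or below 13.9 in the other 6 groups. It thus reached the required mean of 100 only through the tTreg groups, where Runx2 was also highest, so the filter favoured this match.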

How the data were processed

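The 24 RNA-seq libraries were made with a modified SMART-seq2 protocol. Per the submitters' processing notes and the study's methods, reads were trimmed with cutadapt 1.18, aligned with STAR 2.5.3 to mm10 (GRCm38), counted with RSEM 1.3.0 and normalized with DESeq2 1.26. The deposited values are a signal, counts divided by a size factor per library, in which whole reads could be recovered for all libraries within a tolerance of 0.01. The 16 samples of other assays were not analysed here. The members and gene lists were chosen with earlier results of these data known.

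A gene was tested where 3 or more libraries of a fit reached 10 normalized counts. Tests were run with limma 3.58.1 (R 4.3.3, trend, pseudocount 1) in 3 fits: 15 libraries for Tconvs, tTregs and resting iTregs, the 12 iTreg libraries, and all 24 libraries for stimulated iTregs against stimulated Tconvs or tTregs. The test was limma on log2 values because the deposited values are normalized. The edgeR 4.0.16 quasi-likelihood test and DESeq2 1.42.0 on recovered reads (100% of values whole) were added after seeing the data, and called 1423 and 1318 genes for restimulation, against 1425 by limma. A fold change on this scale understates the change of low genes. In each list the 2 largest rises and falls among called genes are named, except for items that are not reported here, and 3 genes are named for likeness to each member. Coordinates and exon lengths came from GENCODE M21, a release other than the one the study counted with, and promoters from RefSeq, matched by symbol for all 4 members. Other scalings, filters, pseudocounts, fits and thresholds, and each library left out in turn, were tried as alternatives. Methods were tested on simulated data. Floors cover counting error only.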

Additional observations from a re-analysis of the deposited data

Results flagged for a closer look

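The responses of 2 members differed between cell types by a test of the difference itself, in limma with adjusted p over all tested genes, and no cause was tested. The log2 change of Runx1 on activation in Tconvs minus that in tTregs was -1.39. That fit takes 1 spread for all groups, although Runx1 varied far more between tTreg than between Tconv libraries. The Runx1 response of iTregs exceeded that of Tconvs by 1.57. The Runx3 response of iTregs exceeded that of Tconvs by 1.29 and that of tTregs by 1.27, with Runx3 higher in 3 of 3 restimulated iTreg libraries than in any resting one and lower in 3 of 3 activated libraries than in any resting one in both other cell types. Groups of 3 are too small for the test of single outlying samples.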

How the results depend on the processing

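Of 1406 values recomputed for the 72 member differences, 1357 kept their call, 28 lost it (14 of them because a log2 fold change above 1 was required) and 21 gained it (12 on the adjusted p alone). None of the called differences reversed, and 30 of the recomputed values, all for uncalled differences, had the other sign. Requiring a log2 fold change above 1 left 1 member for Tconv activation, 0 for tTreg activation, 1 for resting tTregs against Tconvs, 0 for resting iTregs against resting Tconvs, 1 against resting tTregs, 0 for restimulation, 0 for CsA against resting iTregs, and 1 each for restimulated iTregs against activated Tconvs and tTregs. The adjusted p alone gave 3 members for the ORAI inhibitor and 2 for CsA against restimulated iTregs, and 3 for the ORAI inhibitor against resting iTregs. A filter of 100 normalized counts, which removed Runx2, left 1 for resting tTregs against Tconvs. Quantile normalization, all 24 libraries in the fit, and only the groups compared each gave 2 for resting iTregs against resting Tconvs. For CsA against resting iTregs, quantile normalization gave 0 and all 24 libraries 1. With only the groups compared, tTreg activation had 0. Leaving out each library in turn gave 0 to 1 members for tTreg activation, 0 to 2 for CsA against resting iTregs, and 1 to 2 for the iTreg against the tTreg response. The cause of these changes was not tested beyond the construction of each alternative. Over all genes, the calls for restimulation went from 1425 to 878 with the filter of 100, 3264 on the adjusted p alone and 471 above a log2 fold change of 1. For the ORAI inhibitor against restimulated iTregs 366 calls became 232 with all 24 libraries, 869 and 98, and for CsA 324 became 213 with the filter, 187 with all libraries, 945 and 81. Against resting iTregs, 789 calls for the ORAI inhibitor became 479 with the filter, 2045 and 227, and 1047 for CsA became 654, 2705 and 295. Between the inhibitors 40 became 10 with all libraries, 26 without the first CsA library, 86 and 6. For tTreg activation 2517 became 3994 and 763, and for Tconv activation 5774 became 3047 above a log2 fold change of 1. The same threshold took 3991 calls to 2046 for the Tconv against the tTreg response, 4441 to 2268 and 5535 to 2794 for tTregs against Tconvs at rest and activated, 7314 to 4781, 4784 to 2566 and 7293 to 4750 for resting iTregs against resting Tconvs, activated Tconvs and resting tTregs, 5200 to 2873 and 6952 to 4243 for restimulated iTregs against activated Tconvs and tTregs, and 5188 to 2857 and 2501 to 978 for the iTreg response against those of Tconvs and tTregs. The mean correlation of same-numbered libraries was -0.008 among the Tconv, tTreg and resting iTreg libraries (5 of 30 pairs above 0.1) and 0.107 among iTregs (8 of 18), against -0.054 for other iTreg pairs, and since not every pair passed 0.1 the numbers were not taken to pair the samples. A replicate block changed 0 of the member calls, and restimulation kept 2 members called under it. Runx2, with 27 to 98 reads, is the member whose depth limits its precision most.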

Other observations

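Some targets of RUNX complexes lay at the limit of these libraries. Il17a was at 0 in all 24 libraries, which allows up to 5.45 normalized counts at the floor of the shallowest library. Il2 had group means between 2.23 and 5.47 normalized counts and was not tested, and Csf2 was at 0 in all resting Tconv and tTreg libraries. Among the partners, Runx1t1 had at most 1.01 normalized counts in any library.

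Against resting rather than restimulated iTregs, the ORAI inhibitor had 4 targets higher, led by Il4 (log2 fold change 1.54, SE 0.22) and Ccl5 (1.27, SE 0.15), and 1 lower, Foxp3 (-0.56, SE 0.09), which is 27.8% of those tested beside 7.10% of all tested genes. CsA had 6 higher, among them Il4 (1.61, SE 0.22), and again Foxp3 lower (-0.74, SE 0.09), which is 38.9% beside 9.43%. Il4 was at 8.43, 10.1 and 11.4 normalized counts in resting iTregs, 27.2, 30.3 and 23.6 in restimulated iTregs, 33.7, 31.7 and 27.2 with the ORAI inhibitor and 33.7, 35.9 and 28.0 with CsA, so that the inhibitor libraries overlapped with the restimulated ones.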
